A study of Mus musculus with 9 samples.

Results

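The semaphorin, ephrin, Slit and netrin guidance genes were followed in primary cultures of fetal mouse prostate mesenchyme exposed to low doses of estradiol (E2). Members were chosen by gene symbol, as every semaphorin of classes 3 to 7, plexin, Eph receptor, ephrin, Slit, Robo, netrin and Unc5 gene. The set was chosen with earlier results of these data known, and 65 of the 19938 named genes on the array met this rule. They comprised 35 ligand genes and 30 receptor genes: 20 semaphorins, 9 plexins, 8 ephrins, 13 Eph receptors, 3 Slits, 4 Robos, 4 netrins and 4 Unc5 receptors. Ephb2 also fits the rule but had no probeset with a single gene name and was not analysed here.

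The cells were urogenital sinus (UGS) mesenchymal cells of male CD-1 mouse fetuses at gestation day 17, used at first passage after separation from the epithelium. All 9 cultures, controls included, were held for 3 days in hormone-stripped medium with 690 pM dihydrotestosterone (DHT), an androgen that is not converted to E2. They then received the ethanol vehicle, 10 pM E2 or 100 pM E2 for 4 days, with DHT still present, and each group of 3 was measured on one Affymetrix array per culture. The sources do not say whether the cultures of a group came from separate cell isolations, so the spread behind the p-values below is that of these samples and could be technical.

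Guidance molecules are cues that attract or repel moving cells and growing processes, and were first described in axons. Semaphorins signal through plexins, and most of the secreted class 3 semaphorins need a neuropilin as co-receptor. Ephrins and Eph receptors are both membrane-bound and signal at contacts between cells, Slits act through Robo receptors, and netrins through Dcc, neogenin and the Unc5 receptors. The same systems pattern blood vessels, tissue boundaries and branching epithelia outside the nervous system, and UGS mesenchyme is the tissue that directs the budding of prostate ducts from the neighbouring epithelium.

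At 100 pM E2, 3 of the 65 guidance genes (4.62%) changed against vehicle, where 1.13% of all genes and 1.62% of the brighter genes described below were called. Sema3d, a secreted class 3 semaphorin, fell, Sema3a, the founding secreted repellent of the same class, rose, and Epha7, an A-type Eph receptor, fell. No guidance gene passed the test at 10 pM, and no other gene of the array did (0% called). The promoters of these 3 genes, taken as the 250 bases before the transcription start in RefSeq on build GRCm38.p6, are printed below because the data turn on these genes, with lower-case letters throughout except for a GC box (GGGCGG, read here on the opposite strand as CCGCCC) in capitals.
Sema3d promoter, chr5:12382916-12383165, + strand: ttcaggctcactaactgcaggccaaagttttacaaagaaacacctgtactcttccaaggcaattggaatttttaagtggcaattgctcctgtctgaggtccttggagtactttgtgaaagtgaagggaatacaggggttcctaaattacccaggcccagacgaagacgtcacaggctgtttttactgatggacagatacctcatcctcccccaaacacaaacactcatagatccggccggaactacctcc
Sema3a promoter, chr5:13396534-13396783, + strand: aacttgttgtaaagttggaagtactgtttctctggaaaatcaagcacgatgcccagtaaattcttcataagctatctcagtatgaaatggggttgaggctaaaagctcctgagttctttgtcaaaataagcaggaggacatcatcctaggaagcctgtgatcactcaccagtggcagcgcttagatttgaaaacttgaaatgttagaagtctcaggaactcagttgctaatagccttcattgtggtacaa
Epha7 promoter, chr4:28812881-28813130, + strand: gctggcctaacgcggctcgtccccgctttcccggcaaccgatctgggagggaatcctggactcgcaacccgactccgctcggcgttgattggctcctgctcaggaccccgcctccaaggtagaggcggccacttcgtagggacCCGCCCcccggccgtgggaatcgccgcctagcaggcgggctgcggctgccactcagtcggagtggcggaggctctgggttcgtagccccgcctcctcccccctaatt
Epha7 has a further annotated start close by, whose window overlaps the one shown. The Sema3a start lies inside the annotated span of the gene, so its window need not be the promoter used in these cells.

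Sema3d and Sema3a are neighbouring protein-coding genes on chromosome 5, and neither window held any motif searched on both strands. The motifs were the GGTCA repeat unit of the estrogen response element, the full element (GGTCA, any 3 bases, then TGACC, which contains the unit), the androgen response element (AGAACA, any 3 bases, then TGTTCT) and the GC box. Promoter sequence was matched for 56 of the guidance genes, among 27025 genes. None of the 56 held the full estrogen element, which 0.0666% of all genes held, and none held the androgen element, against 0.0111% of all genes. The GGTCA unit was found in 19 of the 56 (33.9%, against 38.4% of all genes). The GC box was found in 42 of the 56 (75%, against 35.4%), and the median GC content was 64.2% for their promoters and 52.4% for all promoters. The Sema3d and Sema3a windows, at 46.8% and 40.8% GC, lay below both medians, and the Epha7 window, at 69.2%, lay above both. A match is a description of letters in this window and not a binding site.

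Whether the genes were measurable was judged against 1027 odorant receptor genes, which mesenchyme is not known to use. Values throughout are log2 signals per probeset, and levels were not compared between genes, since probes differ in brightness. The 95th percentile of the odorant receptor means was 5.59, and 56 of the 65 guidance genes had a mean above it. The 9 within that range were Epha5, Epha6, Ephb1, Ntn5, Plxnb3, Plxnc1, Robo3, Sema4a and Slit1. All 7 class 3 semaphorins, all 4 A plexins, all 8 ephrins and all 4 Unc5 receptors lay above it. The progesterone receptor gene Pgr, a classical estrogen target, served as a check of the exposure. Its signals were 6.57, 6.84 and 6.77 with vehicle, 7.04, 7.27 and 7.26 at 10 pM and 7.55, 7.84 and 7.90 at 100 pM, with no overlap between the groups. The rise of 1.04 at 100 pM passed the test against vehicle (adjusted p = 0.00359). The rise of 0.46 at 10 pM did not pass, nor did the step of 0.58 between the doses (adjusted p = 0.0528).

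Among the class 3 semaphorins, Sema3d gave the largest difference of any guidance gene. Its signals were 9.55, 9.45 and 9.57 in the vehicle cultures, 9.45, 9.55 and 9.49 at 10 pM and 8.90, 8.74 and 8.96 at 100 pM. All 100 pM cultures lay below all of the others, while the vehicle and 10 pM cultures overlapped. The difference from vehicle at 100 pM was -0.66 ± 0.06 on the log2 scale (SE of the limma fit, n = 3 per group; adjusted p = 0.00359), a signal 0.634 times that of vehicle. At 10 pM the difference from vehicle was -0.03 ± 0.06. The doses themselves also differed, by -0.63 ± 0.06 (adjusted p = 0.00568).

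Sema3a, which repels growing axons and endothelial cells through Nrp1 and A plexins, moved the other way. Its signals were 9.73, 9.74 and 9.79 with vehicle, 9.84, 9.81 and 9.81 at 10 pM and 10.02, 10.05 and 10.09 at 100 pM. The 3 groups did not overlap, with the 10 pM cultures between the others. Expression rose by 0.30 ± 0.04 at 100 pM (adjusted p = 0.00483), a signal 1.23 times that of vehicle. The step from 10 pM to 100 pM was 0.24 ± 0.04 (adjusted p = 0.0201), and that from vehicle to 10 pM, 0.07 ± 0.04, did not pass the test (adjusted p = 1). The step between the doses did not pass without any one of the 10 pM cultures (adjusted p from 0.0763 to 0.0936) or without the second 100 pM culture (0.0621). When only the 6 arrays of a comparison were fitted, Sema3d and Sema3a against vehicle missed the threshold as well (adjusted p = 0.0527 and 0.0535), with differences of the same size.

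**Figure D1:**
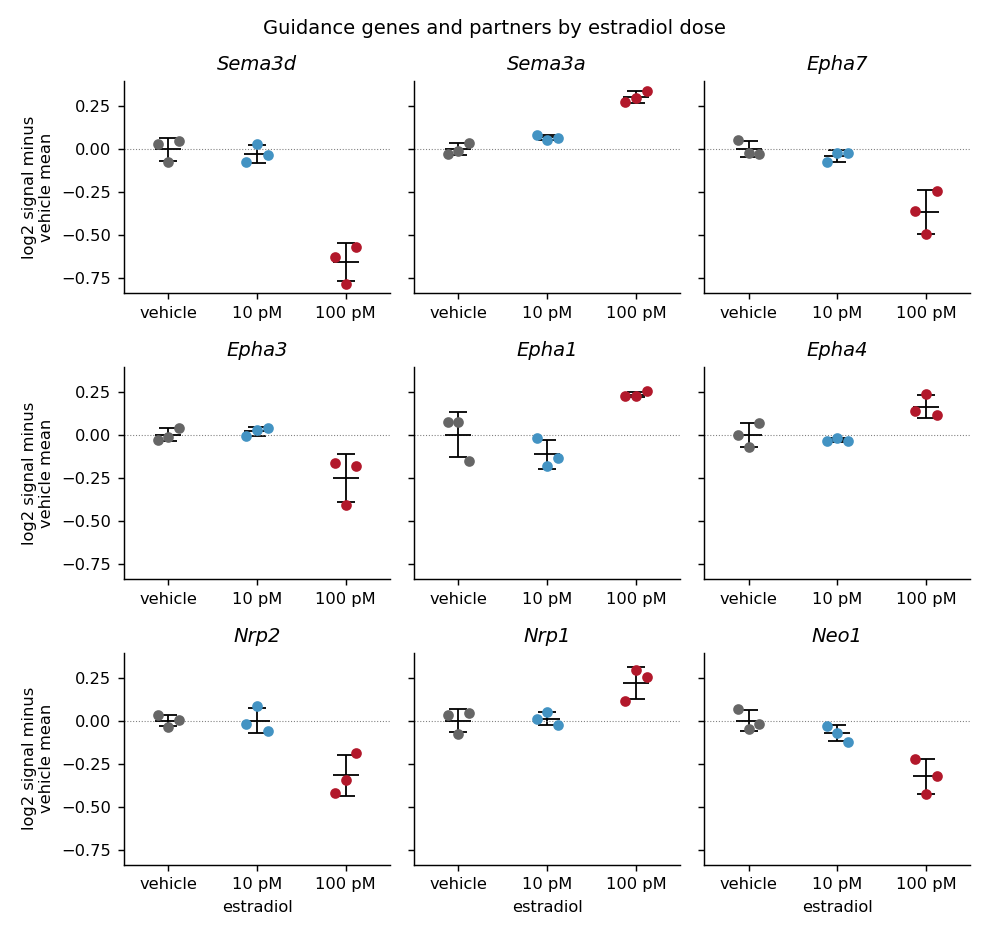
Log2 signal of 9 genes, minus the vehicle mean of each gene, in each culture (points) by estradiol dose, with the group mean and SD (bars, n = 3 per group). Sema3d, Epha7, Epha3, Nrp2 and Neo1 lie lower and Sema3a, Epha1, Epha4 and Nrp1 higher at 100 pM, with the Sema3a cultures at 10 pM between the other groups and the Epha1 mean at 10 pM below that of vehicle. Only Sema3d, Sema3a, Epha7 and Neo1 passed the test against vehicle.

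The other 5 class 3 semaphorins gave smaller differences at 100 pM, and none passed the test. Sema3c, a secreted semaphorin needed for patterning of the cardiac outflow tract, had signals of 8.33, 8.33 and 8.53 with vehicle and 8.06, 8.18 and 8.33 at 100 pM. These groups touched, and the difference was -0.21 (95% interval -0.38 to -0.03; adjusted p = 0.353). Sema3e, which lies 4 protein-coding genes beyond Sema3a on chromosome 5 and signals through Plxnd1 without a neuropilin, differed by -0.05 (95% interval -0.16 to 0.05). Sema3b, Sema3f and Sema3g differed by -0.11, -0.08 and 0.04. Over the class, 2 genes were higher and 5 lower, with a median of -0.08.

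The neuropilins, co-receptors for the class 3 semaphorins and outside the symbol rule, were read with their ligands. Nrp2 had signals of 8.45, 8.38 and 8.42 with vehicle, 8.39, 8.50 and 8.36 at 10 pM and 7.99, 8.07 and 8.23 at 100 pM. The 100 pM cultures lay below all of the others, but the difference of -0.32 ± 0.06 narrowly missed the threshold (adjusted p = 0.0548). Nrp1, the co-receptor that Sema3a binds, had signals of 9.63, 9.52 and 9.65 with vehicle, 9.61, 9.65 and 9.58 at 10 pM and 9.72, 9.90 and 9.85 at 100 pM. Its 100 pM cultures lay above the rest, and the difference of 0.22 ± 0.06 did not pass (adjusted p = 0.140).

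Plexins, the signalling receptors for semaphorins, held no gene that passed the test. At 100 pM, 7 of 9 were higher and 2 lower, with a median of 0.05. The largest difference among the A plexins was 0.13 for Plxna4 (95% interval -0.05 to 0.31), which ran from 0.07 without the third vehicle culture to 0.23 without the second, so that its place above Plxna2 was not stable. Plxna2, a co-receptor partner of neuropilins, had signals of 7.13, 7.07 and 7.13 with vehicle and 7.06, 6.95 and 6.95 at 100 pM, groups that did not overlap, with a difference of -0.12 (adjusted p = 0.276). The deposited table repeats the same Plxna2 value on 4 of the 9 arrays, those at 10 pM and the second with vehicle, which narrows its spread. Plxna3 differed by 0.00 (95% interval -0.07 to 0.07), and its residual SD between cultures, 0.0159, was the smallest of the 65. For this gene, however, the deposited table holds the same value on 6 of the 9 arrays, all of those at 100 pM included. Plxnd1, the Sema3e receptor, differed by 0.09 (95% interval -0.00 to 0.19) and Plxnb3 by 0.12 (95% interval -0.08 to 0.32).

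**Figure D2:**
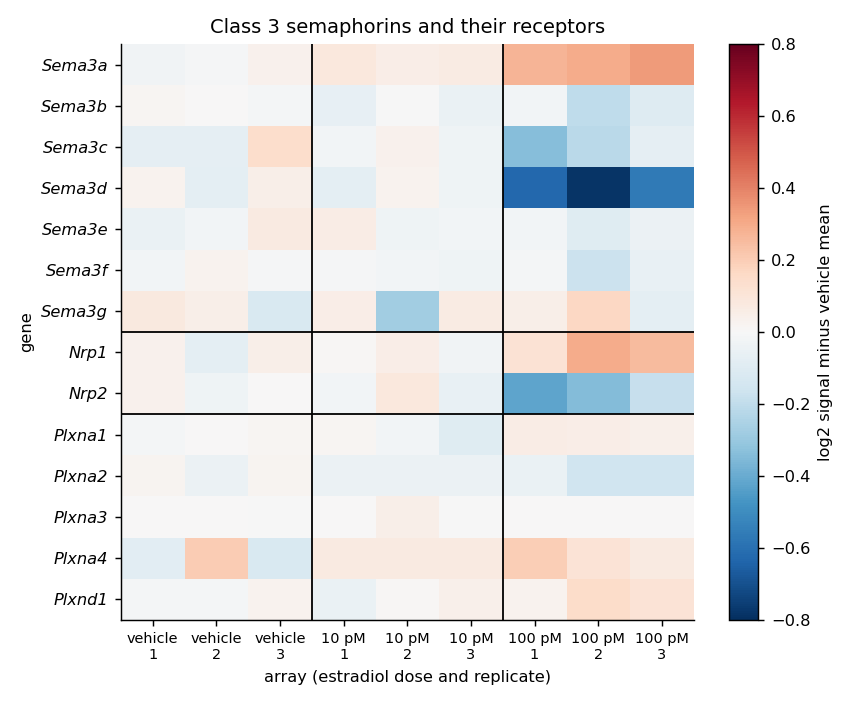
Log2 signal minus the vehicle mean of each gene (colour scale) for the class 3 semaphorins, the neuropilins and their plexin receptors (lines of the grid) in the 9 cultures (columns, by dose and replicate). Sema3d and Nrp2 are lower and Sema3a and Nrp1 higher in all 3 of the 100 pM cultures, and the mean differences of the plexins are smaller and run in both directions.

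The membrane-bound semaphorins gave no call in any comparison. Of the 6 class 4 genes, 5 were lower and 1 higher at 100 pM, the largest difference being -0.12 for Sema4c, a Plxnb2 ligand (95% interval -0.24 to 0.00). Sema5a, a transmembrane semaphorin with thrombospondin repeats, had signals of 7.75, 7.68 and 7.74 with vehicle, 7.62, 7.64 and 7.55 at 10 pM and 7.55, 7.29 and 7.59 at 100 pM. Both doses lay below vehicle without overlap, and neither the -0.12 at 10 pM nor the -0.24 at 100 pM passed the test (adjusted p = 1 and 0.230). The 4 class 6 genes were all higher at 100 pM, from 0.02 for Sema6b to 0.17 for Sema6d, with 95% intervals that held 0 for all except Sema6a (0.15, 0.02 to 0.28). Sema7a, a lipid-anchored semaphorin that binds integrins and Plxnc1, differed by 0.15 (95% interval -0.07 to 0.36).

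The Eph receptors are receptor tyrosine kinases, and Epha7 was the member of this family that passed the test. It had signals of 8.84, 8.76 and 8.76 with vehicle, 8.71, 8.76 and 8.76 at 10 pM and 8.42, 8.29 and 8.54 at 100 pM. The 100 pM cultures were all below the others. Expression fell by 0.37 ± 0.06 at 100 pM (adjusted p = 0.0275), to 0.775 times the vehicle signal, and the difference between the doses, -0.33 ± 0.06, did not pass (adjusted p = 0.0523). The Epha7 call is less secure than those of Sema3d and Sema3a: it was lost without any one of the vehicle or 10 pM cultures or the first 100 pM culture, with adjusted p from 0.0582 to 0.123. With any 1 culture left out the difference itself stayed between -0.43 and -0.30.

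Other A-type receptors moved in both directions without passing the test against vehicle. Epha3, a receptor found in mesenchyme of several developing organs, had signals of 10.65, 10.66 and 10.72 with vehicle, 10.67, 10.70 and 10.72 at 10 pM and 10.51, 10.26 and 10.49 at 100 pM, a difference of -0.25 ± 0.06 (adjusted p = 0.140). Its 100 pM cultures lay below the rest, the second of them lowest. Epha1 had signals of 5.98, 5.98 and 5.75 with vehicle, 5.88, 5.72 and 5.76 at 10 pM and 6.13, 6.12 and 6.15 at 100 pM. The 100 pM cultures lay above all others, with differences of 0.23 ± 0.07 against vehicle (adjusted p = 0.199) and 0.35 ± 0.07 against 10 pM (adjusted p = 0.0610). Epha4, which binds both ephrin classes, had signals of 7.69, 7.61 and 7.75 with vehicle, 7.65, 7.66 and 7.65 at 10 pM and 7.82, 7.92 and 7.80 at 100 pM, with a difference of 0.16 ± 0.05 from vehicle (adjusted p = 0.207). Over the 9 A-type receptors, 6 were higher and 3 lower at 100 pM.

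Of the 4 B-type receptors, 3 were lower at 100 pM and 1 higher, with a median of -0.10. Ephb6, which has an inactive kinase domain, had signals of 6.87, 6.93 and 6.86 with vehicle, 6.84, 7.00 and 6.86 at 10 pM and 6.58, 6.65 and 6.76 at 100 pM. The 100 pM cultures did not overlap the others, and the difference was -0.22 ± 0.06 (adjusted p = 0.161). Ephb3 and Ephb4 also lay below vehicle without overlap, with differences of -0.12 and -0.08 (adjusted p = 0.555 and 0.474). Ephb1, within the odorant receptor range, differed by 0.01.

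The ephrins, the ligands of these receptors, held no gene that passed the test. The largest difference among the B-type ligands, which span the membrane, was that of Efnb1. Its signals were 8.79, 8.80 and 8.80 with vehicle, 8.75, 8.74 and 8.74 at 10 pM and 8.74, 8.65 and 8.63 at 100 pM. The cultures at both doses lay below vehicle, with differences of -0.05 at 10 pM and -0.12 at 100 pM (adjusted p = 1 and 0.238). Efnb2, the arterial ephrin and an Ephb4 ligand, differed by 0.08 at 100 pM (95% interval -0.02 to 0.19). The 5 lipid-anchored A-type ligands all differed by under 0.1 in size at 100 pM, from -0.08 for Efna5, a high-affinity ligand of A-type receptors, to 0.02 for Efna4.

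The Slit ligands, large secreted proteins, held no gene that passed the test. Slit3 had signals of 9.81, 9.70 and 9.78 with vehicle, 9.86, 9.79 and 9.72 at 10 pM and 9.66, 9.41 and 9.65 at 100 pM. The 100 pM cultures lay below the rest, with differences of -0.19 ± 0.07 against vehicle and -0.22 ± 0.07 against 10 pM (adjusted p = 0.345 and 0.303). Slit2 differed by -0.03 (95% interval -0.11 to 0.05), an interval that excludes a change of the size seen for Sema3d in either direction. Among their receptors, Robo1 differed by 0.01 (95% interval -0.09 to 0.11) and Robo2 by -0.19 (95% interval -0.39 to 0.01). The Robo2 difference was -0.09 without the second 100 pM culture and -0.12 without the second vehicle culture.

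None of the netrins passed the test. The largest difference was that of Ntn5, whose mean lay within the odorant receptor range, at 0.15 (95% interval 0.03 to 0.26) at 10 pM and 0.11 (95% interval -0.01 to 0.22) at 100 pM. At 100 pM, Ntn1, the prototype netrin, differed by -0.04 (95% interval -0.17 to 0.09) and Ntn4, a basement membrane netrin, by 0.01 (95% interval -0.15 to 0.16). Of the Unc5 receptors, which mediate repulsion by netrins, Unc5c had signals of 7.93, 7.91 and 7.94 with vehicle, 7.91, 7.92 and 7.92 at 10 pM and 7.83, 7.77 and 7.84 at 100 pM. Its 100 pM cultures lay below the others, with a difference of -0.11 ± 0.03 from vehicle (adjusted p = 0.230) and a residual SD of 0.0233. Unc5a was higher by 0.13 at 100 pM (adjusted p = 0.316), and Unc5b differed by -0.03 (95% interval -0.13 to 0.07).

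Neogenin (Neo1), the Dcc relative that binds netrins and repulsive guidance molecules, was the single gene to pass the test among the partners of these systems. It had signals of 9.56, 9.44 and 9.47 with vehicle, 9.46, 9.42 and 9.37 at 10 pM and 9.27, 9.07 and 9.17 at 100 pM. All of the 100 pM cultures lay below all others, and expression fell by 0.32 ± 0.06 (adjusted p = 0.0351). This call was lost without any one of the cultures other than the first at 100 pM, with adjusted p from 0.0665 to 0.136 and differences from -0.35 to -0.27. Dcc had a mean within the odorant receptor range and differed by 0.22 ± 0.09 (adjusted p = 0.414). In all, 63 of 65 listed co-receptors, adaptors and effectors were measured, with a median difference of 0.00. Neo1 was 1.59% of them, against the 1.13% of all genes called. At an unadjusted p under 0.05, 4 were higher and 6 lower (15.9%, against 10.9% of all genes and 12.9% of those above the odorant receptor range).

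Counted over the whole set at 100 pM against vehicle, 1 of the 65 guidance genes rose and 2 fell, or 4.62% called, where 1.13% of all genes were called (0.446% rose and 0.687% fell). Among the 13418 genes with a mean above the odorant receptor range, 1.62% were called. At an unadjusted p under 0.05, 6 guidance genes were higher and 10 lower, 24.6% of the set, where 10.9% of all genes passed (5.5% higher and 5.36% lower) and 12.9% of those above the odorant receptor range. The vehicle and 100 pM cultures did not overlap in 19 guidance genes, where 12.5% of all genes did not overlap. The set had no common direction, with 32 genes higher and 33 lower and a median of -0.00 (0.00 for all genes), and 39 of the 65 differed by under 0.1 in size. Ligands and receptors were split, with 14 ligands higher and 21 lower, and 18 receptors higher and 12 lower. These counts describe a set chosen with earlier results of these data known, and were not tested.

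**Figure D3:**
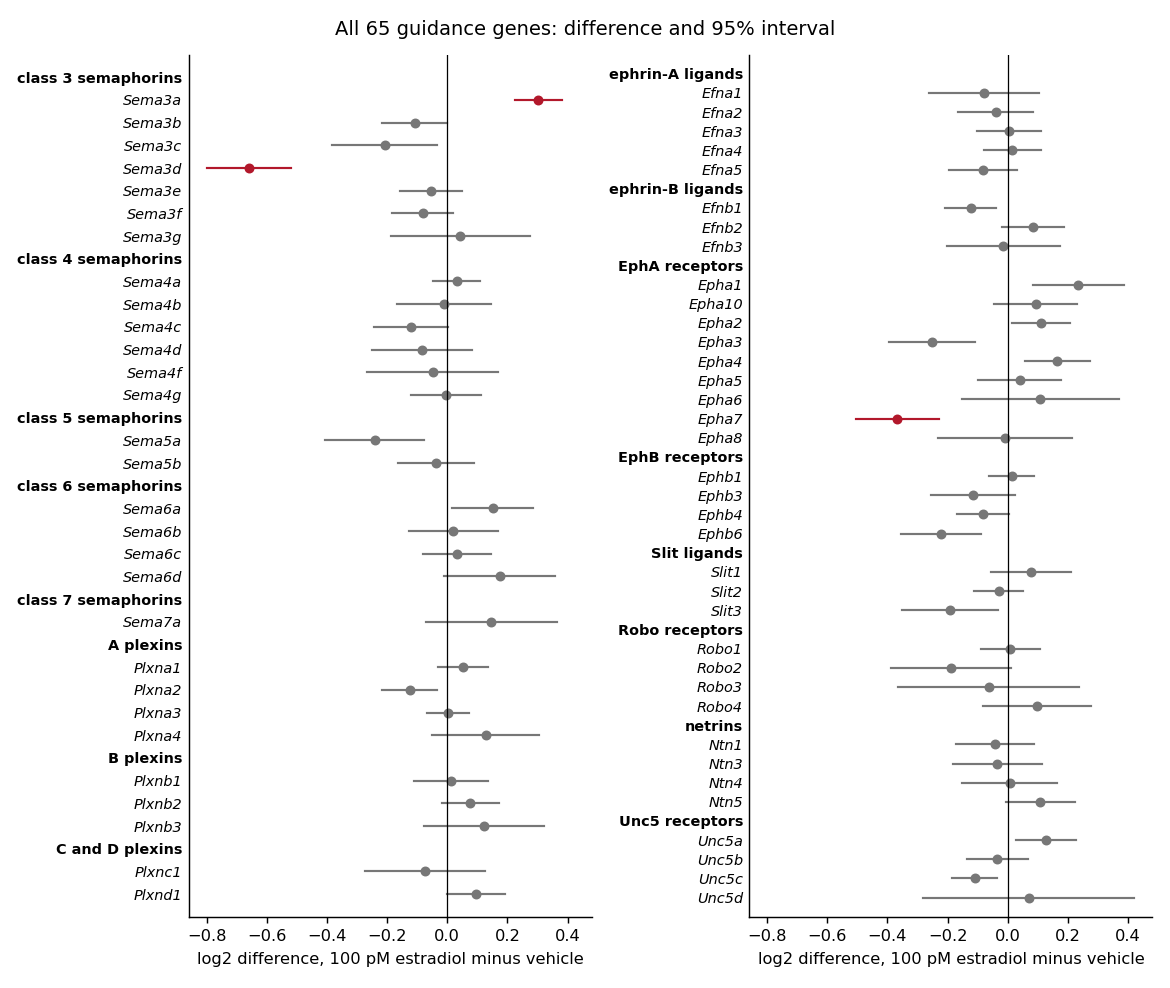
Log2 difference between 100 pM E2 and vehicle (points) with its 95% interval from the limma fit (lines) for all 65 guidance genes, grouped by family. The 3 genes in red, Sema3a, Sema3d and Epha7, passed the test at an adjusted p under 0.05, and most of the others lie within 0.1 of 0.

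At 10 pM E2 no guidance gene passed the test, and neither did any gene of the array (0% called). At an unadjusted p under 0.05, 2 guidance genes were higher and none lower, where 3.54% of all genes passed (2.19% higher and 1.35% lower). They were Ntn5, a netrin gene within the odorant receptor range, at 0.15 ± 0.05, and Efna4, at 0.10 ± 0.04. For Efna4, signals were 7.36, 7.35 and 7.25 with vehicle, 7.47, 7.42 and 7.38 at 10 pM and 7.35, 7.33 and 7.33 at 100 pM, so that the 10 pM cultures lay highest. The largest difference in size was that of Robo3, -0.27 ± 0.13, which also lay within the odorant receptor range. It rested on the first vehicle culture (5.44, against 4.98 and 5.01 in the others), and without that culture was -0.13, smaller in size than Ntn5. Over the set, 58 of 65 genes differed by under 0.1 in size, and the cultures of the 10 pM and vehicle groups did not overlap in 4 (5.93% of all genes did not).

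Between the doses, 100 pM against 10 pM, the 2 guidance genes that passed were Sema3a, higher at 100 pM, and Sema3d, lower, where 0.833% of all genes were called (0.226% higher and 0.607% lower) and 1.21% of those above the odorant receptor range. At an unadjusted p under 0.05, 5 guidance genes were higher and 9 lower, where 10.2% of all genes passed (4.63% higher and 5.54% lower, and 12.3% of those above the odorant receptor range), and the cultures did not overlap in 16 genes (12.3% of all genes). By the test over all 3 groups, Sema3d, Sema3a and Epha7 differed (adjusted p = 0.00414, 0.0107 and 0.0436), where 0.843% of all genes were called. At an unadjusted p under 0.05, 16 guidance genes passed that test, where 9.15% of all genes did. The vehicle and the 10 pM groups enter several of these comparisons, so the counts are not independent of each other.

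The study looked for responses that do not follow the dose. Here the 10 pM mean was tested against the average of the vehicle and 100 pM means. A response in order of dose but in uneven steps can also pass this contrast. No guidance gene passed, and 0.00502% of all genes did. At an unadjusted p under 0.05, 5 guidance genes had a higher and 3 a lower 10 pM mean than this average, where 5.61% of all genes passed (3.47% and 2.14%). These guidance genes included Sema3d, Sema3a and Epha7, whose means ran in order of dose. By the order of the means alone, 22 of the 65 were highest and 19 lowest at 10 pM, 33.8% and 29.2%, against 32.1% and 29.1% of all genes. A further 11 rose and 13 fell in order of dose, among them Sema3a in the former and Sema3d and Epha7 in the latter. The smallest p of this contrast belonged to Sema3d, at 0.30 (adjusted p = 0.251), whose 10 pM mean stayed near vehicle. For Epha1 the 10 pM mean was the lowest of the 3, with a contrast of -0.23 (adjusted p = 0.528).

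Markers fixed as lists were read in the same arrays, since in bulk cultures fewer cells of a type and less RNA per cell cannot be told apart. All 10 mesenchyme markers lay above the odorant receptor range, with mean levels of 11.07 to 11.09 with vehicle and 10.92 to 10.99 at 100 pM, and 4 of them fell at 100 pM (Pdgfra, Lum, Dcn and Col3a1, with differences of -0.45, -0.41, -0.25 and -0.18). The list did not move together. In all, 8 were lower and 2 higher, Vim by 0.13 and Thy1 by 0.08, with a median of -0.03. Pdgfrb, Col1a1 and Col1a2 differed by -0.02, -0.01 and -0.01. Neuron markers, relevant because guidance genes are used by neurons, had mean levels of 5.80 to 5.85 and 5.84 to 5.95, with 5 of 10 above the odorant receptor range and none called. Of these 10, 9 were higher at 100 pM than with vehicle and 1 lower, with a median of 0.08, where 53.0% of all genes were higher. Glia markers had 5 of 8 above the odorant receptor range, 5.51 to 5.55 and 5.54 to 5.57, with 6 higher and 2 lower at 100 pM and none called. Endothelial markers ranged from 6.02 to 6.10 and 5.99 to 6.01, with 5 of 10 above it. Pecam1 and Cdh5 were among the endothelial markers within the odorant receptor range, while Kdr fell by 0.98 and Emcn rose by 0.82. Macrophage markers were lower at 100 pM in 9 of 10, with mean levels of 5.77 to 5.92 and 5.54 to 5.60, and C1qb passed the test. Epithelial markers, 6 of 10 above the range, had levels of 5.88 to 5.97 and 5.95 to 6.08, with 8 higher and 2 lower at 100 pM. None was called against vehicle, but the keratin gene Krt18 was 0.43 higher at 100 pM than with vehicle (adjusted p = 0.112) and rose by 0.57 from 10 pM (adjusted p = 0.0428). Epcam and Cdh1 were among the epithelial markers within the odorant receptor range. Pericyte and smooth muscle markers, all 10 above it, had levels of 9.80 to 9.83 and 9.82 to 9.86, with Rgs5 rising by 0.47. That list was split, with 5 higher and 5 lower, a median of 0.00 and the lowest difference, -0.19, for Myh11. The part of these markers in the differences of Sema3d, Sema3a and Epha7 was not tested.

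The precision was set by 3 arrays per group. The median residual SD between cultures of a group was 0.0756 for the guidance genes and 0.0710 for all genes, up to 0.227 for Unc5d, whose 95% interval at 100 pM ran from -0.28 to 0.42. The deposited table also repeats values exactly between arrays, in 40 of the 65 guidance genes (61.5%, against 72.7% of all genes) and within a group in 19, which narrows the spread of those genes; Sema3d, Sema3a and Epha7 had 9 distinct values each. Array correlations were 0.997 to 0.998 within groups and 0.996 to 0.998 between groups.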

How the data were processed

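Total RNA of 9 cultures was hybridised to Affymetrix mouse gene ST arrays. The authors converted the scanned images with Affymetrix software (GCOS and Gene Expression Console). The deposited values are log2 signals per probeset, a scale inferred here from their range. The summarisation and normalization methods are not given in the sources used here, and no scanner files were used. Array medians lay between 6.17 and 6.20, so the values were not normalized again.

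Of 35556 probesets, 21789 had 1 gene symbol, 1621 several and 12146 none here. Symbols were updated through Entrez numbers (21698 matched), and the brightest probeset was kept for each of 19938 genes. The 65 guidance genes had 70 probesets. No filter on dim genes was applied. limma 3.58.1 in R 4.3.3 fitted 1 mean per group over all genes (lmFit, eBayes), two-sided, with Benjamini-Hochberg adjustment over all genes and calls at an adjusted p under 0.05. The fit was tested on simulated data. Genes named with values were those called, those with the smallest p in each test, the largest difference in each family and the receptor partners. Some further genes were named after their values were seen. The members and lists were chosen with earlier results of these data known. Promoters came from RefSeq (GRCm38.p6), with no genome build used for the signals.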

Additional observations from a re-analysis of the deposited data

How the results depend on the processing

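None of the 31 differences of single genes followed through the alternatives changed direction. For 100 pM against vehicle, the count of 3 guidance genes fell to 0 when the fit held only the compared arrays (lowest adjusted p 0.0527, Sema3d, and 0.0535, Sema3a). It was 2, without Epha7, with all probesets tested and with the replicate block, and 2 to 3 when 1 culture was left out. For 100 pM against 10 pM, the count of 2 became 4 (with Epha1 and Epha7) under quantile normalization, without the dimmest 30% of genes, with the trended and robust eBayes and at an adjusted p under 0.10. It became 1, Sema3d alone, with all probesets tested and with the replicate block, 0 with only the compared arrays, and 1 to 3 when 1 culture was left out. With the mean of the probesets of a gene and with array weights, Epha7 passed beside Sema3a and Sema3d, and Epha1 did not. For the test over 3 groups, the count of 3 became 0 by one-way analysis of variance after adjustment, 5 (with Epha1 and Unc5c) at its unadjusted p under 0.01, where 2.66% of all genes passed, and 2 to 3 when 1 culture was left out. The counts at 10 pM, and for 10 pM against the average of the vehicle and 100 pM means, were 0 throughout. The median difference over the 65 genes, when 1 culture was left out, ran from -0.0276 to 0.0106 at 100 pM against vehicle, from -0.00544 to 0.00648 at 10 pM and from -0.0266 to 0.00145 between the doses. Epha7 and Neo1 each lost the call in 10 of 17 alternatives, and the causes were not tested. Leaving out 1 culture brought 4 other differences under the threshold: Epha1 between the doses without the third vehicle culture (adjusted p = 0.0265), Epha7 between the doses (0.0258) and Nrp2 against vehicle (0.0209) without the third 100 pM culture, and Nrp1 against vehicle without the first (0.0499). Nrp2 against vehicle also passed under quantile normalization, without the dimmest genes, with the trended and robust eBayes and with array weights (adjusted p from 0.0256 to 0.0452). Deviations from the group mean correlated between -0.11 and 0.20 for cultures with the same replicate number. For different numbers the range was -0.19 to 0.17. These ranges were similar, and whether cultures shared an isolation or batch was not tested. With 3 arrays per group, a gene that did not pass may still differ by any amount within its interval. The means of 9 members lay within the odorant receptor range.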
